A study of Homo sapiens with 27 samples.

Results

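The genes described here encode the cyclins and cyclin-dependent kinases that carry a cell through G1 and into DNA replication, together with the phosphatase that removes inhibitory phosphate from CDK2. They were the D-type cyclins CCND1, CCND2 and CCND3, the E-type cyclins CCNE1 and CCNE2, the A-type cyclin CCNA2, the kinases CDK2, CDK4 and CDK6, and CDC25A. All 10 were found by symbol among the 57992 genes of the table, and all 10 passed the filter on low counts in every line. RNA was measured in 3 human acute myeloid leukaemia lines that carried a constitutive lentiviral hairpin for 3 days: a scramble control, CARM1 hairpin 1 or CARM1 hairpin 2. CARM1, also called PRMT4, is an arginine methyltransferase that acts as a coactivator of transcription. MOLM13 and MV411 have a rearranged KMT2A gene. SKNO1 has a RUNX1-RUNX1T1 fusion, and its medium held 10 ng/mL GM-CSF. Each of the 9 groups had 3 libraries, so there were 27 libraries in all. The labels do not say whether replicates were separate cultures or infections, so p-values measure the spread between these samples only. Each line is a single established culture, and a difference between SKNO1 and the other lines cannot be told apart from its medium.

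In G1, D-type cyclins join CDK4 or CDK6 and begin to phosphorylate the RB proteins, which hold E2F transcription factors in check. Released E2F raises transcription of the E-type cyclins, CCNA2, CDC25A and other genes of S phase, and cyclin E with CDK2 completes RB phosphorylation. In leukaemic blood cells, CDK6 and the D-type cyclins CCND2 and CCND3 are the usual early partners, and CDK6 also acts on transcription. In RNA from whole cultures, fewer cells in a phase of the cycle and less RNA per cell cannot be told apart.

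Library totals ranged from 25063577 to 53291599 expected counts. CARM1, the targeted gene, lay at 16.2 to 28.3 CPM (each library's counts scaled to the same total, with TMM factors) in the 9 scramble libraries. It lay at 2.62 to 8.74 CPM in the 18 knockdown libraries, so no knockdown library reached a scramble library. CARM1 was lower with hairpin 2 than with hairpin 1 in MV411, by a log2 difference of -1.02 ± 0.18 (SE, adjusted p = 0.0046). SKNO1 showed the same at -1.45 ± 0.20 (adjusted p = 0.00096), whereas MOLM13 gave -0.22 ± 0.30 (adjusted p = 1). Markers matched the line labels: HOXA9 lay at 53 CPM in MOLM13 and 32.8 CPM in MV411 scramble libraries and at 0 in SKNO1, and RUNX1T1 at 70.0 CPM in SKNO1. Among the myeloid markers, MPO was low in MV411 (3.12 CPM), and CSF1R (1.37 CPM) and CD68 (4.14 CPM) were low in SKNO1. The summed T cell, B cell, erythroid and stromal lists each stayed at or below 4.50 CPM in every library. Of their markers, CD3E, CD3G, MS4A1, HBA1, COL1A2 and COL3A1 were under 0.1 CPM in all 3 lines. The 6 myeloid markers summed to 589 to 992 CPM in MV411 scramble libraries and 958 to 1960 CPM in its knockdown libraries. The ranges overlapped there, as they did in MOLM13 (775 to 3910 and 1130 to 5750 CPM) and in SKNO1 (1640 to 3450 and 1720 to 4950 CPM). Abundant structured RNAs (mitochondrial rRNA, 7SL, 7SK, RNase P and RMRP RNA) took 36.4% to 39.2% of counts in scramble and 40.9% to 52.1% in knockdown libraries of MOLM13 and MV411. In SKNO1 they took 17.7% to 19.97% and 23.5% to 28.8%. With scaling by total counts the median log2 fold change of all genes lay at -0.05 to -0.25 in the 6 comparisons with scramble, beside -0.02 to 0.07 with TMM scaling. It raised the share of called genes that were lower from between 50.7% and 66.6% to between 71.2% and 91.6%. The part of these shares and markers in the results below was not tested.

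Promoter windows from RefSeq (build GRCh38.p14, 250 bases before to 50 after a start) matched 6 of the 10 genes. CCND1, CCND2, CCNE2 and CDK2 had none. The windows were searched on both strands for 4 E2F words (TTTCCCGC, TTTCGCGC, TTTGCCGC and TTTGGCGC), 4 words of the cell-cycle homology region or CHR (TTTGAA and TTCGAA, as well as TTTAAA and also CTTGAA) and for the E-box CACGTG. The sequences of 3 genes are shown, chosen for their changes described below. CDC25A and CCNA2 fell together in MOLM13 and MV411, and CDK4 was called lower with hairpin 2 in MV411 and SKNO1. The part of the searched words in these changes was not tested. Capitals mark the matched words. The CDC25A stretch, chr3:48188418-48188667 on the minus strand, runs over the 250 bases before the start and holds an E2F word that begins 44 bases before it, outside the exons of GENCODE 29.
CDC25A: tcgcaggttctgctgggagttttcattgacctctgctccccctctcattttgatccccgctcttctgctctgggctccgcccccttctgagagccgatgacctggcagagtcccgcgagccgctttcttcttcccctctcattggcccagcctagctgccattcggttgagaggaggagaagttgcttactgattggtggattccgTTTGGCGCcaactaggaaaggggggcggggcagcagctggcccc
E2F words were in 3.31% of the 35116 windows. The CCNA2 stretches are on the minus strand, chr4:121823934-121824133 and chr4:121823898-121823921, and each holds a CHR word, 87 bases before the start and outside an exon in the first, 28 bases before it and within an exon in the other.
CCNA2, upstream: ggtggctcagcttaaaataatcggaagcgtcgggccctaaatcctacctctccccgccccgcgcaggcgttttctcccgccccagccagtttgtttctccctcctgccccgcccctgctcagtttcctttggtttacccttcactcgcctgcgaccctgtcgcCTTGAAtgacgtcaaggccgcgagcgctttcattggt
CCNA2, near the start: tcgcgggataCTTGAActgcaaga
CHR words are short, and 32.2% of windows held at least 1. The CDK4 window held 3 E-boxes, 216, 196 and 101 bases before the start, at chr12:57752513-57752536, chr12:57752493-57752516 and chr12:57752398-57752421 on the minus strand. The latter 2 lie within an exon of CDK4 in GENCODE 29, where the annotated gene extends upstream of this window to 57756013.
CDK4, at 216: gtcaagcggtCACGTGtgatagca
CDK4, at 196: agcaacagatCACGTGgctgccat
CDK4, at 101: gggtggcggtCACGTGcccagaac
At least 1 E-box was in 7.26% of windows, and 0.094% held 3 or more. A CDK6 window held 1 E-box, 30 bases after the start, a CCNE1 window held the CHR word TTTAAA, and the CCND3 windows held none of the words. No match overlapped a match to another word. A match describes letters, not a bound site.

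Before knockdown, the D-type cyclins differed between the lines. CCND3 (chromosome 6, 41934933 to 42050357 in GENCODE 29) lay at 118, 104 and 109 CPM in the MOLM13 scramble libraries, 61.1, 54.9 and 57.5 in MV411, and 3.78, 5.28 and 3.53 in SKNO1. No 2 lines overlapped. CCND3 was 26.5-fold higher in MOLM13 than in SKNO1 (log2 difference 4.72 ± 0.17 SE, adjusted p = 4.8e-09) and 13.8-fold higher in MV411 than in SKNO1 (3.78 ± 0.17, adjusted p = 1.5e-08). CCND1 (chromosome 11, 69641087 to 69654474) was the scarcest of the 10, with 4 to 249 counts per library. Its scramble libraries gave 6.49, 5.0 and 2.87 CPM in MOLM13, 1.56, 1.69 and 1.86 in MV411. SKNO1 gave 0.567, 0.349 and 0.303 CPM. It too had the order MOLM13, MV411, SKNO1 without overlap, with log2 differences of 1.5 ± 0.33 (adjusted p = 0.0051) and 2.06 ± 0.37 (adjusted p = 0.00056) between neighbours. CCND2 (chromosome 12, 4273772 to 4305350) had another order. Its scramble libraries gave 214, 281 and 229 CPM in MOLM13, 116, 106 and 131 in MV411. SKNO1 gave 267, 281 and 258 CPM. MV411 was lower than both MOLM13 (log2 difference 1.05 ± 0.14, MOLM13 over MV411, adjusted p = 2.0e-04) and SKNO1 (-1.19 ± 0.14, MV411 over SKNO1, adjusted p = 3.0e-05), while MOLM13 and SKNO1 overlapped (-0.14 ± 0.14, adjusted p = 0.42).

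Levels of different genes were compared per kilobase of exon. Among the D-type cyclins, CCND2 made up 97.9% ± 0.313 (SD, n = 3) of the summed CPM per kilobase in SKNO1 scramble libraries, and CCND3 1.87% ± 0.334. In MOLM13 the shares were 62.7% ± 4.73 for CCND2 and 35.5% ± 4.39 for CCND3, and in MV411 they were 61.4% ± 2.26 and 37.3% ± 2.29. CCND1 stayed at 2.61% or less in every scramble library. CDK6 (chromosome 7, 92604921 to 92836594) had the highest mean level of the 10 genes in MOLM13 scramble libraries, at 43.5 ± 0.468 CPM per kilobase, followed by CCND2 (33.7 ± 4.94), CDK4 (26.1 ± 3.19), CCND3 (18.9 ± 1.21) and CCNA2 (15.1 ± 3.25). CDK6 also led in MV411 at 31.9 ± 6.06, next to CDK4 at 25.1 ± 4.69 and CCNA2 at 19.3 ± 10.9, whose ranges of mean ± SD overlapped. In SKNO1, CDK6 (37.8 ± 1.66), CCND2 (37.6 ± 1.64) and CDK4 (33.7 ± 6.44) overlapped in the same way. CDK2, CDC25A, CCNE1 and CCNE2 lay between 1.87 and 6.57 CPM per kilobase in the 3 lines.

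Of the 10 genes, 4 were higher in MOLM13 than in MV411 (CCND1, CCND2, CCND3 and CDK6), where 16% of all 19340 genes tested were higher. Against SKNO1, CCND1, CCND3 and CCNE2 were higher in MOLM13 and CCNE1 lower (28.8% and 27.2% of all genes), and CCND1 and CCND3 were higher in MV411 and CCND2 lower (28.4% and 27.1%). In either direction, 4 of 10 (MOLM13) and 3 of 10 (MV411) were called against SKNO1, beside 56% and 55.5% of all genes. The counts against SKNO1 were thus near or below the shares of all genes. CCND1 and CCND3 were called in each of the 3 pairs. Of these calls, those of CDK6 (log2 difference 0.46 ± 0.14, adjusted p = 0.029), CCNE1 (-0.67 ± 0.22, adjusted p = 0.023) and CCNE2 (1.17 ± 0.43, adjusted p = 0.037) were lost when some single libraries were left out. CDK6 remained called only without MV411 replicate 1 (adjusted p up to 0.11 without the others), and CCNE2 only without replicate 2 of either line (up to 0.12). CCNE1 was lost without MOLM13 replicate 2 or 3 or SKNO1 replicate 2 (up to 0.086). With total count scaling CCNE2 (adjusted p = 0.16) and CDK6 (adjusted p = 0.053) were not called, nor with the replicate block (0.067 and 0.051).

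**Figure D1:**
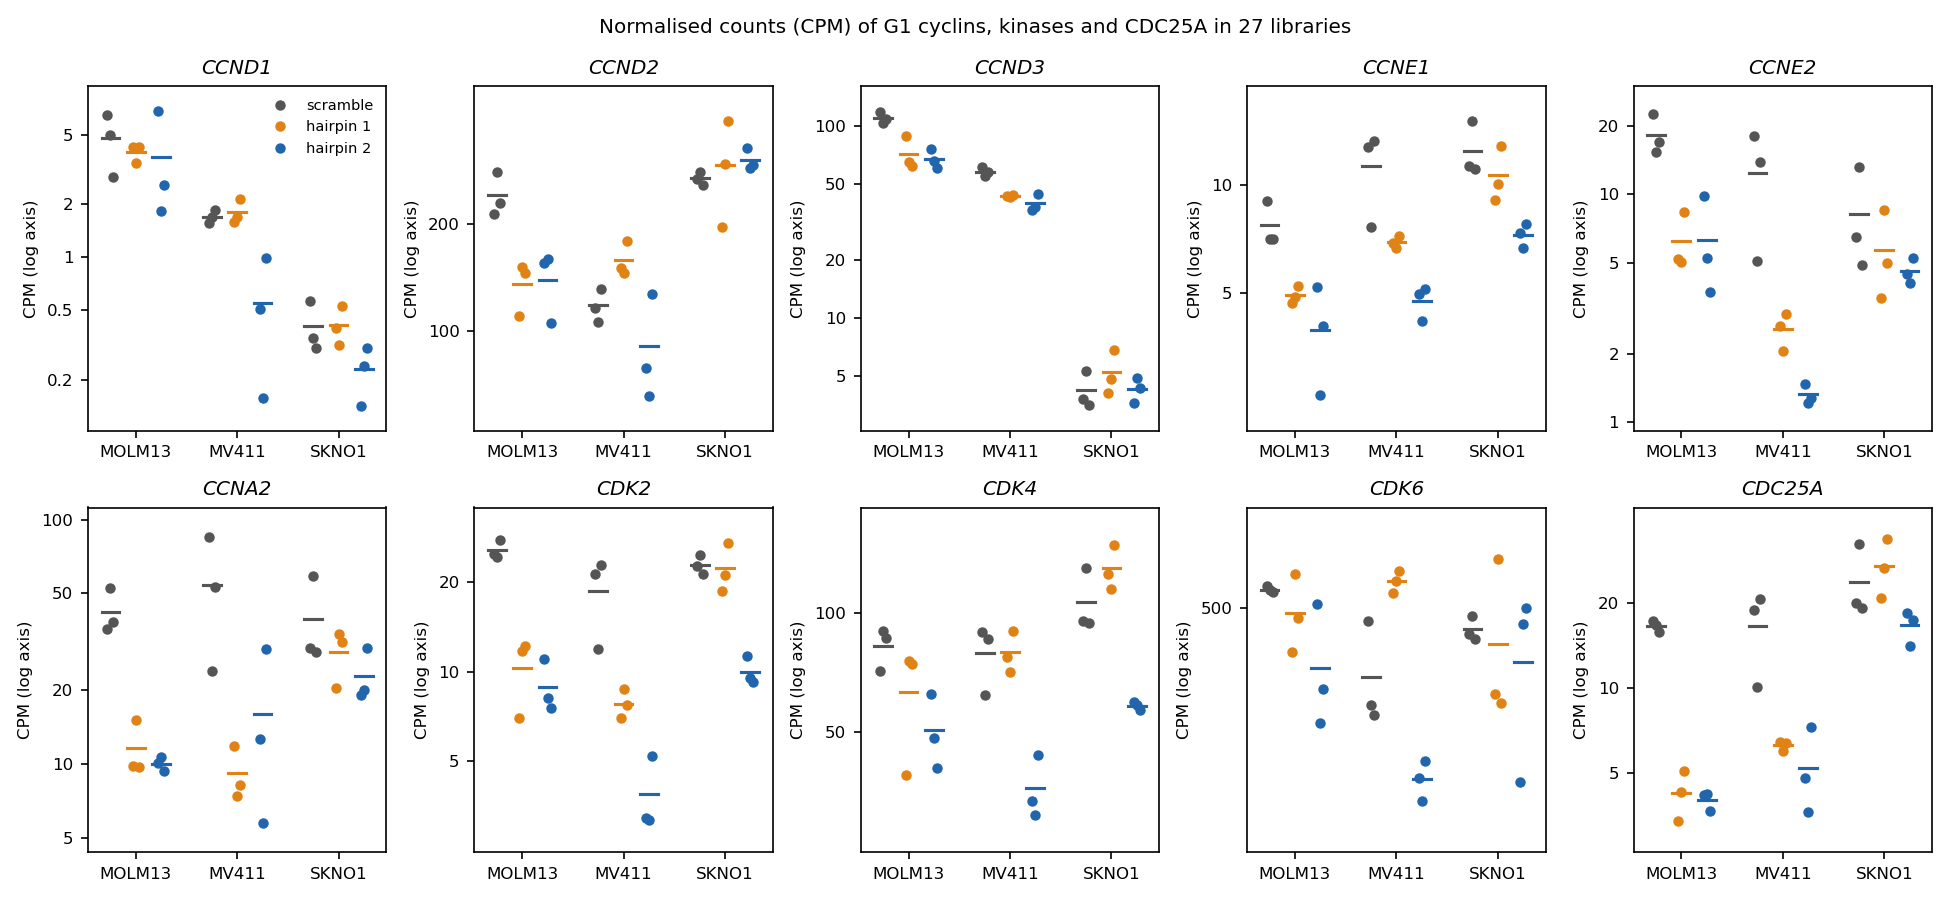
CPM on a log axis for each of the 10 genes in 27 libraries, with 1 point per library, coloured by hairpin, and a line at the mean of each group of 3. CCND3 separates SKNO1 (3.53 to 6.81 CPM) from the other lines (36.6 to 118 CPM), and CDC25A, CCNA2 and CDK2 lie below scramble in MOLM13 with both hairpins.

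**Figure D2:**
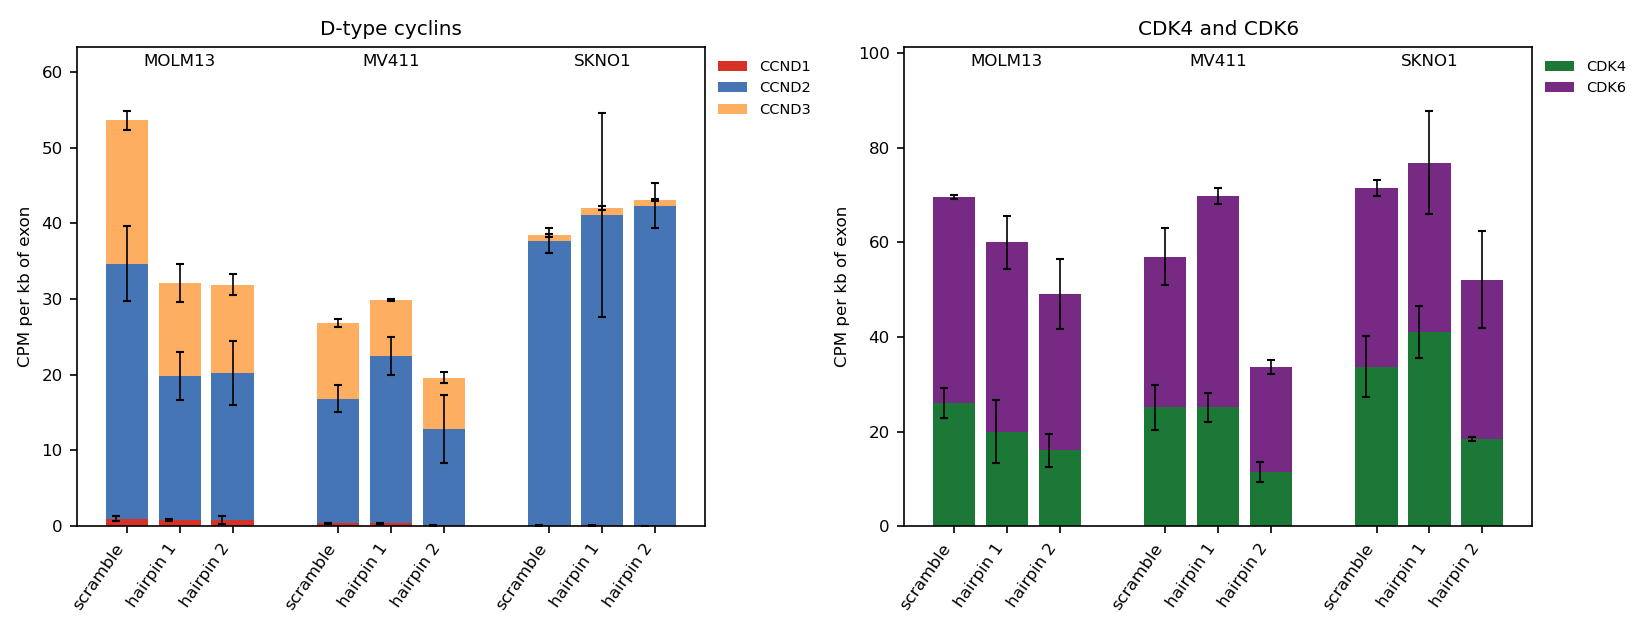
Stacked mean CPM per kilobase of exon of the D-type cyclins (left) and of CDK4 and CDK6 (right) in the 9 groups. Bars are means of 3 libraries, and each error bar is the SD of the gene whose segment it tops. CCND2 takes nearly the whole bar in SKNO1, and CDK4 and CDK6 together are lowest in MV411 with hairpin 2, at 33.6 ± 3.64.

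After CARM1 knockdown, no gene of the 10 was called higher in any line by edgeR without a replicate block on all libraries, and the number called lower differed by line and hairpin. The 10 genes were chosen with earlier results of these data known, so their counts beside the shares of all genes are descriptive only. In MOLM13, 5 of 10 were lower with hairpin 1 and 6 of 10 with hairpin 2, where 4.25% and 6.03% of all genes tested were lower. In MV411, 4 of 10 were lower with hairpin 1 (4.13% of all genes) and 9 of 10 with hairpin 2 (10.2%). With the replicate number as a block, 7 were called for MV411 hairpin 1, 6 lower and CDK6 higher. DESeq2 also called CDK6 higher there. In SKNO1, 0 of 10 were called with hairpin 1 (0.277% of all genes were lower) and 3 of 10 were lower with hairpin 2 (5.69%). For the SKNO1 count of 0, no gene of the 10 had an unadjusted p under 0.05 in edgeR, and DESeq2 and limma-voom called 0 as well. The 10 genes had a median log2 fold change of -0.74 (MOLM13), -0.57 (MV411) and -0.02 (SKNO1) with hairpin 1, and of -0.86, -1.43 and -0.79 with hairpin 2. Of all genes tested, 2.13% (MOLM13), 2.37% (MV411) and 0.255% (SKNO1) were higher with hairpin 1, and 3.39%, 8.38% and 5.54% with hairpin 2. The median over all genes lay between -0.02 and 0.07. All 3 knockdown libraries lay below all 3 scramble libraries for 7 (MOLM13), 6 (MV411) and 0 (SKNO1) of the 10 with hairpin 1. With hairpin 2 these counts were 9, 8 and 4. All lay above for 2 in MV411 with hairpin 1 and 1 in SKNO1 with hairpin 2. Of 15347 genes, 18.3%, 14.2% and 8.52% lay wholly below with hairpin 1, and 18.9%, 16% and 20% with hairpin 2. Lack of overlap alone is thus weak evidence of a change. CDC25A, CCNA2, CCNE2 and CDK2 were lower with both hairpins in MOLM13 and in MV411, but each hairpin was compared with the same scramble libraries. Without the MV411 scramble replicate 2, the low library of CDC25A, CCNA2, CCNE2 and CDK2, 5 genes were called with hairpin 1 and 9 with hairpin 2. Leaving out other single libraries gave 1 or 2 calls for MV411 hairpin 1, 5 to 10 for MV411 hairpin 2, 3 or 4 for MOLM13 hairpin 1, 3 to 6 for MOLM13 hairpin 2 and 2 or 3 for SKNO1 hairpin 2. For MV411 hairpin 1 the count was 1 without any of its own libraries or scramble replicate 3, and 2 without scramble replicate 1. The 5 calls of MV411 hairpin 2 came without its replicate 1. The 3 calls of MOLM13 hairpin 1 came without its replicate 2 or any scramble replicate, and the 3 calls of MOLM13 hairpin 2 without its replicate 2 or any scramble replicate. The 2 calls of SKNO1 hairpin 2 came without any of its own libraries or scramble replicate 1 or 2.

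**Figure D3:**
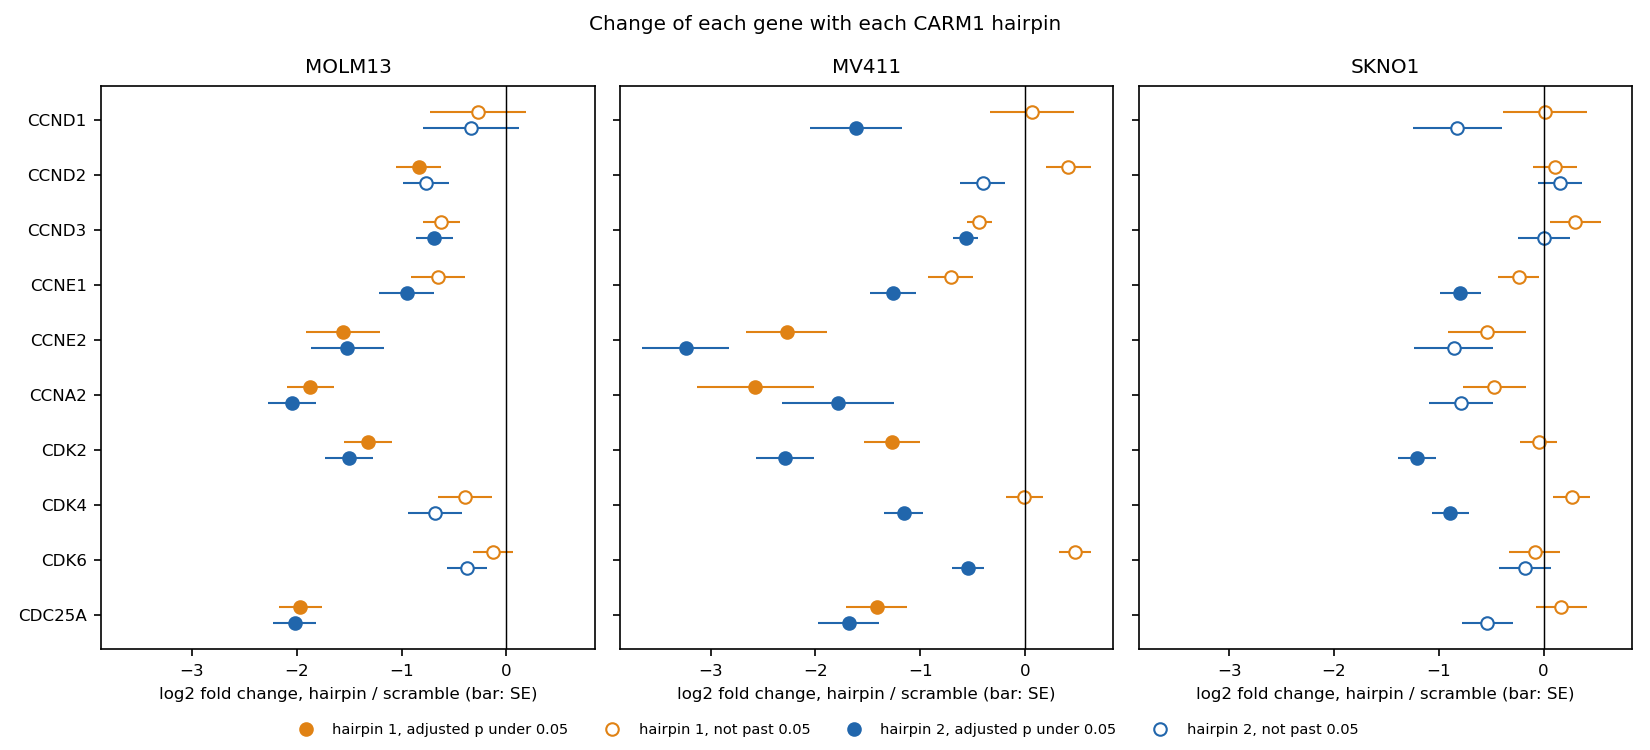
Log2 fold change of each gene, hairpin over scramble, with its SE, in the 3 lines. Filled points passed an adjusted p of 0.05 and open points did not. CCNE2 with hairpin 2 in MV411 has the lowest value (-3.24), and the hairpin 1 points of SKNO1 scatter around 0.

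CDC25A (chromosome 3, 48157146 to 48188402), the phosphatase that activates cyclin-dependent kinases and whose promoter is printed above, fell in MOLM13 with both hairpins. Its scramble libraries gave 17.3, 16.8 and 15.8 CPM, hairpin 1 gave 3.38, 4.30 and 5.11, and hairpin 2 gave 4.2, 4.21 and 3.67. Neither knockdown group overlapped scramble, and CDC25A fell to 25.6% of scramble with hairpin 1 (log2 fold change -1.97 ± 0.20 SE, adjusted p = 0.0012) and to 24.6% with hairpin 2 (-2.02 ± 0.20, adjusted p = 0.0011). Both calls held with each library left out. In MV411 the scramble libraries gave 19.0, 10.1 and 20.7 CPM, hairpin 1 gave 6.44, 6.0 and 6.39, and hairpin 2 gave 4.80, 3.63 and 7.27. Scramble replicate 2 was the low one, yet it lay above every knockdown library. CDC25A was lower with hairpin 1 (-1.41 ± 0.29, adjusted p = 0.016) and hairpin 2 (-1.68 ± 0.29, adjusted p = 0.0031). The hairpin 1 call held without scramble replicate 2 (-1.68, adjusted p = 0.0026) and was lost without any other library (adjusted p 0.051 to 0.085), while the hairpin 2 call held throughout. In SKNO1, scramble gave 20, 32.4 and 19.2 CPM, hairpin 1 gave 20.9, 26.6 and 33.9, and hairpin 2 gave 18.5, 14.1 and 17.4. Hairpin 1 overlapped scramble (0.17 ± 0.24, 95% interval -0.31 to 0.65), and hairpin 2 lay below every scramble library but missed the threshold (-0.54 ± 0.25, adjusted p = 0.19).

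CCNA2 (chromosome 4, 121816444 to 121823933), the cyclin of S phase and G2, also fell in MOLM13. Its libraries gave 35.8, 52.6 and 38.0 CPM with scramble, 9.77, 15.2 and 9.70 with hairpin 1, and 10.1, 10.7 and 9.32 with hairpin 2. The groups did not overlap, and the log2 fold changes were -1.87 ± 0.23 (adjusted p = 0.0022) and -2.05 ± 0.23 (adjusted p = 0.0014), called with each library left out. MV411 was far more uneven: scramble gave 85.3, 24.1 and 53 CPM, hairpin 1 gave 11.9, 7.43 and 8.22, and hairpin 2 gave 12.7, 5.72 and 29.6. Scramble replicate 2 was the lowest scramble library, and hairpin 2 replicate 3 lay above it. CCNA2 was lower with hairpin 1 (-2.57 ± 0.56, adjusted p = 0.020) and with hairpin 2 (-1.78 ± 0.54, adjusted p = 0.041). Without scramble replicate 2 the values were -2.93 (adjusted p = 0.0081) and -2.14 (adjusted p = 0.018), and without hairpin 2 replicate 3 the second was -2.58 (adjusted p = 0.0060). Leaving out any other library ended the call (adjusted p 0.063 to 0.094 for hairpin 1 and 0.069 to 0.15 for hairpin 2). In SKNO1 the scramble libraries gave 29.8, 59.0 and 28.7 CPM, hairpin 1 gave 20.4, 34.0 and 31.5, and hairpin 2 gave 19.2, 20.1 and 29.8, all overlapping. The changes there were -0.47 ± 0.30 (adjusted p = 0.47) and -0.79 ± 0.30 (adjusted p = 0.12).

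The E-type cyclins activate CDK2 at the start of DNA replication. CCNE2 (chromosome 8, 94879770 to 94896678) had the lowest fold change of the 10 genes in MV411 with hairpin 2. Its MV411 libraries gave 18.1, 5.09 and 13.9 CPM with scramble, 2.66, 2.06 and 2.99 with hairpin 1, and 1.48, 1.22 and 1.28 with hairpin 2. All 3 groups were apart, although scramble replicate 2 was again low. CCNE2 fell to 20.7% with hairpin 1 (-2.27 ± 0.39, adjusted p = 0.0072) and to 10.6% with hairpin 2 (-3.24 ± 0.41, adjusted p = 0.00063), and both calls held with each library left out. In MOLM13, scramble gave 22.5, 15.4 and 17.0 CPM, hairpin 1 gave 5.23, 5.05 and 8.38, and hairpin 2 gave 9.87, 5.24 and 3.74, without overlap. CCNE2 was lower by -1.56 ± 0.35 (adjusted p = 0.028) and -1.52 ± 0.35 (adjusted p = 0.026). The hairpin 1 call held only without hairpin 1 replicate 3, and the hairpin 2 call only without hairpin 2 replicate 1 or 3 (adjusted p up to 0.10 and 0.076 otherwise). In SKNO1 the groups overlapped: scramble gave 6.49, 13.2 and 4.90 CPM, hairpin 1 gave 3.51, 8.56 and 5.0, and hairpin 2 gave 4.47, 4.07 and 5.25. The changes were -0.54 ± 0.37 (adjusted p = 0.50) and -0.86 ± 0.38 (adjusted p = 0.17). CCNE2 shares 1629 of its 4397 exon bases with INTS8 on the opposite strand, and whether reads were counted by strand is not given in the sources used here. INTS8 was not called with either hairpin in any line, at log2 fold changes from -0.34 to 0.07. It lay far above CCNE2, at a mean of 51.6 CPM beside 1.33 CPM in MV411 with hairpin 2. The part of INTS8 reads in the CCNE2 values was not tested.

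CCNE1 (chromosome 19, 29811898 to 29824308) changed less than CCNE2 where CCNE2 fell most. In SKNO1 it was the E-type cyclin called, though the uncalled hairpin 2 change of CCNE2 there was of like size (-0.86 ± 0.38). No test compared CCNE1 with CCNE2. In SKNO1 it lay at 11.3, 15.1 and 11.1 CPM with scramble, 9.08, 10.1 and 12.9 with hairpin 1, and 7.38, 6.67 and 7.80 with hairpin 2. Hairpin 2 lay below every other library, and CCNE1 was lower there (-0.79 ± 0.20, adjusted p = 0.024). That call held only without scramble replicate 3 (adjusted p 0.060 to 0.11 without any other library). In MV411, CCNE1 lay at 12.8, 7.65 and 13.3 CPM with scramble, 6.90, 6.68 and 7.21 with hairpin 1, and 4.98, 4.18 and 5.15 with hairpin 2. The groups stood apart in that order, and hairpin 2 was lower than scramble (-1.26 ± 0.22, adjusted p = 0.0028), a call that held with each library left out. Hairpin 1 gave -0.71 ± 0.21 (adjusted p = 0.078), and passed in 4 of 8 alternative settings, the replicate block among them (-0.68 ± 0.17, adjusted p = 0.029). In MOLM13, CCNE1 lay at 9.04, 7.09 and 7.10 CPM with scramble, 4.70, 4.88 and 5.24 with hairpin 1, and 5.20, 2.59 and 4.06 with hairpin 2. Both knockdown groups lay below scramble, but hairpin 1 missed the threshold (-0.65 ± 0.26, adjusted p = 0.17). Hairpin 2 passed it (-0.95 ± 0.26, adjusted p = 0.047), though only without hairpin 2 replicate 1 did the call survive the loss of a library (adjusted p 0.075 to 0.12 otherwise). Per kilobase, CCNE2 took 57.7% ± 1.68 of the E-type cyclin sum in MOLM13 scramble libraries and 41.6% ± 5.72 with hairpin 1. In MV411 its share was 36.9% ± 8.65 with scramble, 17.6% ± 2.19 with hairpin 1 and 13.9% ± 1.16 with hairpin 2, without overlap. In SKNO1 it was 26.4% ± 6.79, 23.2% ± 8.45 and 26.7% ± 1.17.

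CDK2 (chromosome 12, 55966769 to 55972784), the kinase partner of cyclins E and A, was called lower in 5 of the 6 comparisons with scramble, more than any other of the 10 genes. In MOLM13 it lay at 24.9, 24.2 and 27.8 CPM with scramble, 6.96, 11.7 and 12.2 with hairpin 1, and 11, 8.15 and 7.57 with hairpin 2. It fell to 40.1% (-1.32 ± 0.23, adjusted p = 0.010) and 35.3% (-1.50 ± 0.23, adjusted p = 0.0053), and both calls held with each library left out. In MV411 it lay at 21.3, 11.9 and 22.8 CPM with scramble, 6.97, 8.71 and 7.72 with hairpin 1, and 3.21, 3.16 and 5.21 with hairpin 2, and the 3 groups did not overlap. CDK2 was lower with hairpin 1 (-1.27 ± 0.27, adjusted p = 0.017) and hairpin 2 (-2.29 ± 0.28, adjusted p = 0.00048). The first call held without scramble replicate 2 and was lost without any other library (adjusted p 0.054 to 0.10), and the second held throughout. In SKNO1 it lay at 22.6, 24.7 and 21.3 CPM with scramble, 18.7, 21.2 and 27.1 with hairpin 1, and 11.3, 9.49 and 9.23 with hairpin 2. Only hairpin 2 lay apart, at 43.2% of scramble (-1.21 ± 0.18, adjusted p = 0.0022, held with each library left out), while hairpin 1 gave -0.05 ± 0.18 with a 95% interval of -0.40 to 0.30.

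CDK4 (chromosome 12, 57747727 to 57756013), a partner of the D-type cyclins whose E-boxes are printed above, was called lower with hairpin 2 only, in 2 lines. In MV411 it lay at 89.6, 62.3 and 86.2 CPM with scramble, 77.7, 71.2 and 90.1 with hairpin 1, and 33.6, 30.9 and 43.9 with hairpin 2. Scramble and hairpin 1 overlapped (-0.01 ± 0.18, 95% interval -0.36 to 0.34), and hairpin 2 lay below both (-1.16 ± 0.18 against scramble, adjusted p = 0.0017). In SKNO1 it lay at 95.4, 130 and 94.4 CPM with scramble, 126, 115 and 149 with hairpin 1, and 59.7, 58.5 and 56.8 with hairpin 2. The same pattern held: hairpin 1 gave 0.27 ± 0.18 (adjusted p = 0.48) and hairpin 2 gave -0.89 ± 0.18 (adjusted p = 0.0092). In both lines the hairpin 2 call held with each library left out. In MOLM13 it lay at 71.3, 90.4 and 86.5 CPM with scramble, 39.1, 76.0 and 74.5 with hairpin 1, and 62.6, 48.5 and 40.7 with hairpin 2. Hairpin 2 lay below scramble without passing (-0.68 ± 0.26, adjusted p = 0.12), and hairpin 1 overlapped it (-0.40 ± 0.26, adjusted p = 0.40). CDK4 with hairpin 2 passed in 2 of 8 alternative settings, the fit of all 27 libraries (adjusted p = 0.031) and no filter on low counts (adjusted p = 0.010). CDK4 shares 1369 of its 3168 exon bases with TSPAN31 on the opposite strand. TSPAN31 was not called in these comparisons, at -0.16 ± 0.13 with hairpin 2 in MV411 and 0.09 ± 0.18 in SKNO1.

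CDK6 had a higher mean level per kilobase than CDK4 in the scramble libraries of each line, but not with hairpin 1 in SKNO1 (35.8 beside 41.0). Against scramble it was called in MV411 only. There it lay at 477, 354 and 342 CPM with scramble, 527, 550 and 569 with hairpin 1, and 273, 252 and 290 with hairpin 2. Hairpin 1 lay above every scramble library and hairpin 2 below, so the hairpins lay on opposite sides of the same controls. The fall with hairpin 2 was called (-0.55 ± 0.15, adjusted p = 0.030), but not in the fit of all 27 libraries (adjusted p = 0.11). It was also lost without hairpin 2 replicate 1 or 2 or scramble replicate 1 (adjusted p up to 0.11). Hairpin 1 gave 0.48 ± 0.15 (adjusted p = 0.097), which passed with the replicate block (0.49 ± 0.13, adjusted p = 0.035), with DESeq2 (adjusted p = 0.029) and without scramble replicate 1 (0.64, adjusted p = 0.040). In MOLM13, CDK6 lay at 539, 532 and 528 CPM with scramble, 427, 564 and 482 with hairpin 1, and 506, 332 and 375 with hairpin 2. Hairpin 2 lay below every scramble library, but the changes of -0.12 ± 0.19 and -0.38 ± 0.19 were not called. In SKNO1 the libraries of each hairpin spread widely, at 368, 594 and 357 CPM with hairpin 1 and 269, 472 and 499 with hairpin 2, around scramble values of 456, 486 and 448. CDK4 and CDK6 summed to 57.0 ± 9.44 CPM per kilobase in MV411 scramble libraries, 69.9 ± 4.30 with hairpin 1 and 33.6 ± 3.64 with hairpin 2. CDK6 took 56.0% ± 4.70, 64.1% ± 2.33 and 66.2% ± 2.73 of those sums.

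Among the D-type cyclins, CCND3 moved in both lines where it is abundant. In MOLM13, hairpin 1 libraries gave 88.3, 65.0 and 61.6 CPM and hairpin 2 gave 76.0, 65.4 and 60.1, all below scramble. The change was called with hairpin 2 (-0.69 ± 0.18, adjusted p = 0.041) and not with hairpin 1 (-0.62 ± 0.18, adjusted p = 0.069), which passed in 5 of 8 alternative settings, the replicate block among them (-0.64 ± 0.16, adjusted p = 0.048). The hairpin 2 call held only without hairpin 2 replicate 1 (adjusted p 0.077 to 0.11 without any other library). In MV411, hairpin 1 gave 43.1, 42.6 and 43.7 CPM and hairpin 2 gave 36.6, 38.0 and 44.2, again below every scramble library. Hairpin 2 was called (-0.57 ± 0.12, adjusted p = 0.0078, and 0.054 without hairpin 2 replicate 1), and hairpin 1 gave -0.43 ± 0.12 (adjusted p = 0.054, and 0.028 with the replicate block, 1 of 3 settings that called it). In SKNO1, where CCND3 was scarce, hairpin 1 gave 4.08, 4.78 and 6.81 CPM and hairpin 2 gave 3.59, 4.86 and 4.31, overlapping scramble.

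By edgeR on all libraries, CCND2 and CCND1 were called once each against scramble. CCND2 in MOLM13 lay at 110, 151 and 146 CPM with hairpin 1 and 155, 159 and 105 with hairpin 2, below all scramble libraries. It was called with hairpin 1 (-0.84 ± 0.22, adjusted p = 0.047), a call lost without any single library (adjusted p 0.060 to 0.18), and missed with hairpin 2 (-0.77 ± 0.22, adjusted p = 0.051). CCND2 with hairpin 2 was called in 6 of 8 alternative settings, with adjusted p from 0.0058 upward, and in 0 of 6 fits without a library. In MV411, hairpin 1 gave 150, 146 and 179 CPM and hairpin 2 gave 78.9, 65.8 and 127, so hairpin 1 lay above scramble and hairpin 2 overlapped it. Neither was called (0.41 ± 0.21 and -0.40 ± 0.21), but hairpin 2 passed with the replicate block (-0.44 ± 0.13, adjusted p = 0.032). With hairpin 1 in MV411 the CCND2 share of the D-type sum was 73.8% ± 1.74 and the CCND3 share 24.9% ± 1.82, outside the ranges of the scramble libraries. In SKNO1, CCND2 lay at 196, 295 and 389 CPM with hairpin 1 and 327, 288 and 293 with hairpin 2. Hairpin 2 lay above scramble, but the change was small (0.16 ± 0.21, adjusted p = 0.69). CCND1 in MV411 lay at 1.58, 1.69 and 2.14 CPM with hairpin 1, overlapping scramble, and at 0.505, 0.158 and 0.989 with hairpin 2, below it. It was called lower with hairpin 2 (-1.61 ± 0.44, adjusted p = 0.027), but not without hairpin 2 replicate 1 or scramble replicate 3 (adjusted p up to 0.10). In MOLM13, CCND1 lay at 4.24, 3.43 and 4.26 CPM with hairpin 1 and 6.78, 1.84 and 2.57 with hairpin 2, and in SKNO1 at 0.393, 0.317 and 0.531 and at 0.143, 0.241 and 0.306. At such counts only large changes could be seen: the 95% interval in MOLM13 hairpin 2 ran from -1.23 to 0.56.

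The hairpins were then compared with each other within each line. In MOLM13, 0 of the 10 genes and 0% of all genes were called by edgeR. No gene of the 10 had an unadjusted p under 0.05, and DESeq2 and limma-voom called 0 of the 10. In MV411, 5 of 10 were lower with hairpin 2 than with hairpin 1 (5.62% of all genes were lower). They were CDK4 (-1.15 ± 0.18, adjusted p = 0.0030), CDK6 (-1.02 ± 0.15, adjusted p = 0.0023), CCND1 (-1.68 ± 0.44, adjusted p = 0.032), CCND2 (-0.82 ± 0.21, adjusted p = 0.031) and CDK2 (-1.02 ± 0.27, adjusted p = 0.035). The calls of CDK4 and CDK6 held with each library left out. Those of CCND1, CCND2 and CDK2 were lost without any of the hairpin 1 libraries or hairpin 2 replicate 1 (adjusted p up to 0.13, 0.14 and 0.15), and those of CCND2 and CDK2 also without hairpin 2 replicate 2. CCND3, CDC25A and CCNA2 did not pass (-0.13 ± 0.12, -0.27 ± 0.29 and 0.79 ± 0.54), with a 95% interval for CCNA2 of -0.26 to 1.84. In SKNO1, 2 of 10 were lower with hairpin 2 (5% of all genes were lower): CDK2 (-1.16 ± 0.18, adjusted p = 0.0023) and CDK4 (-1.16 ± 0.18, adjusted p = 0.0021). Both calls held with each library left out. CARM1 was also lower with hairpin 2 in MV411 and SKNO1 and not called different in MOLM13, and its part in these differences was not tested.

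Whether the change itself differed between lines was tested by interaction terms in the fit of all 27 libraries. With hairpin 1, 3 of 10 genes fell more in MOLM13 than in SKNO1 (3.1% of all genes): CDC25A (difference of log2 fold changes -2.14 ± 0.37 SE, adjusted p = 0.0035), CDK2 (-1.28 ± 0.33, adjusted p = 0.029) and CCND3 (-0.94 ± 0.26, adjusted p = 0.038). CDC25A also fell more in MV411 than in SKNO1 with hairpin 1 (-1.59 ± 0.36, adjusted p = 0.034), the 1 gene of 10 called there (0.823% of all genes were lower). The MOLM13 difference of CDC25A held with each of 12 libraries left out. Without 6 of the 12 libraries CDK2 was lost, without 8 CCND3, and without 8 the MV411 difference of CDC25A, with adjusted p up to 0.11, 0.16 and 0.14. Without MV411 scramble replicate 2, 4 genes were called in that comparison with hairpin 1 and 3 in the same comparison with hairpin 2. With hairpin 1, CARM1 lay at 5.69 to 8.74 CPM in SKNO1 and at 2.84 to 5.82 CPM in MOLM13, ranges that overlapped. The CARM1 change itself was greater in MOLM13 than in SKNO1 (-1.12 ± 0.32, adjusted p = 0.044). It was not called different between MV411 and SKNO1 (-0.70 ± 0.32, adjusted p = 0.35), where CDC25A was called. The part of CARM1 levels in these differences was not tested. With hairpin 2, 0 of 10 differed between any pair of lines, where 0.0705% (MOLM13 and MV411), 0.489% (MOLM13 and SKNO1) and 0.927% (MV411 and SKNO1) of all genes were called in either direction. For these pairs 2, 4 and 4 of the 10 had an unadjusted p under 0.05, limma-voom called 0 and DESeq2 called 0, 1 and 1. CDC25A in MOLM13 against SKNO1 (-1.53 ± 0.37, adjusted p = 0.059) and CCNE2 in MV411 against SKNO1 (-2.38 ± 0.60, adjusted p = 0.052) came closest. Between MOLM13 and MV411 with hairpin 1, 0 of 10 and 0% of all genes were called by edgeR, 1 of the 10 had an unadjusted p under 0.05, and DESeq2 and limma-voom called 0 of the 10.

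The 10 genes were set beside lists of the genes that act with them. The lists too were chosen with earlier results known, so their counts are descriptive. Cyclins, kinases and regulators of later phases fell in MOLM13 and MV411: 9 of 14 were lower with each hairpin in each of these lines, and none was higher. Of all genes tested, 4.25% (MOLM13), 4.13% (MV411) and 0.277% (SKNO1) were lower with hairpin 1. With hairpin 2 these shares were 6.03%, 10.2% and 5.69%. The mitotic cyclins CCNB1 (-1.61 ± 0.16 with hairpin 1 and -1.89 ± 0.17 with hairpin 2) and CCNB2 (-1.92 ± 0.22 and -2.08 ± 0.22) had the smallest p in MOLM13. PKMYT1, a kinase that inhibits CDK1, was lower in MV411 (-2.56 ± 0.28 and -2.57 ± 0.28), and so was CKS1B, a small subunit bound to CDK1 and CDK2, with hairpin 2 (-2.69 ± 0.42). In SKNO1, 0 of 14 were called with hairpin 1 and 5 of 14 were lower with hairpin 2, among them CKS1B (-1.90 ± 0.25, adjusted p = 0.0010). The list had a median log2 fold change of -1.44 (MOLM13), -1.54 (MV411) and -0.20 (SKNO1) with hairpin 1, and of -1.51, -1.46 and -0.56 with hairpin 2.

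Of the RB and E2F genes, 6 (MOLM13), 5 (MV411) and 0 (SKNO1) of 13 were lower with hairpin 1, 6, 9 and 3 with hairpin 2, and none was higher. In the same order, 4.25%, 4.13% and 0.277% of all genes were lower with hairpin 1, and 6.03%, 10.2% and 5.69% with hairpin 2. E2F1, an activator of S phase genes, was lower in MV411 by -2.49 ± 0.32 and -3.03 ± 0.33, and in SKNO1 with hairpin 2 by -0.96 ± 0.21 (adjusted p = 0.014). RBL1, the RB relative p107, was lower in MOLM13 (-1.17 ± 0.15 and -1.26 ± 0.15) and in SKNO1 with hairpin 2 (-0.99 ± 0.18, adjusted p = 0.0050). The CDK inhibitors did not move as a group. In SKNO1 with hairpin 2, 3 of 8 rose (5.54% of all genes were higher), among them CDKN1A, or p21 (2.15 ± 0.32, adjusted p = 0.0018), and CDKN1C, or p57 (1.97 ± 0.26, adjusted p = 0.0010). In MV411 with hairpin 2, CDKN1A (0.85 ± 0.25, adjusted p = 0.038) and CDKN1C (1.14 ± 0.35, adjusted p = 0.044) rose while 3 of 8 fell, among them CDKN2C, or p18 (-1.75 ± 0.22, adjusted p = 0.00055). Of all genes tested in MV411 with hairpin 2, 8.38% were higher and 10.2% lower. With hairpin 1 in MV411, 2 of 8 fell and none rose (4.13% of all genes were lower). In MOLM13, 6 of the 8 passed the filter: CDKN3, a phosphatase that acts on CDK2, fell with both hairpins (-2.32 ± 0.32 and -2.45 ± 0.32), and CDKN1C rose with hairpin 2 (1.67 ± 0.45, adjusted p = 0.045). Of 10 ubiquitin ligase genes of G1, 1 (MOLM13), 1 (MV411) and 0 (SKNO1) were lower with hairpin 1, and 2, 1 and 2 with hairpin 2. These are small counts, and 1 of 10 in MV411 with hairpin 2 was near the 10.2% of all genes. FBXO5, an inhibitor of the anaphase-promoting complex, was lower in each comparison of these but SKNO1 hairpin 1. SKP2, which targets CDK inhibitors for degradation, was lower with hairpin 2 in MOLM13 (-0.87 ± 0.22, adjusted p = 0.037) and SKNO1 (-0.92 ± 0.24, adjusted p = 0.031).

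**Figure D4:**
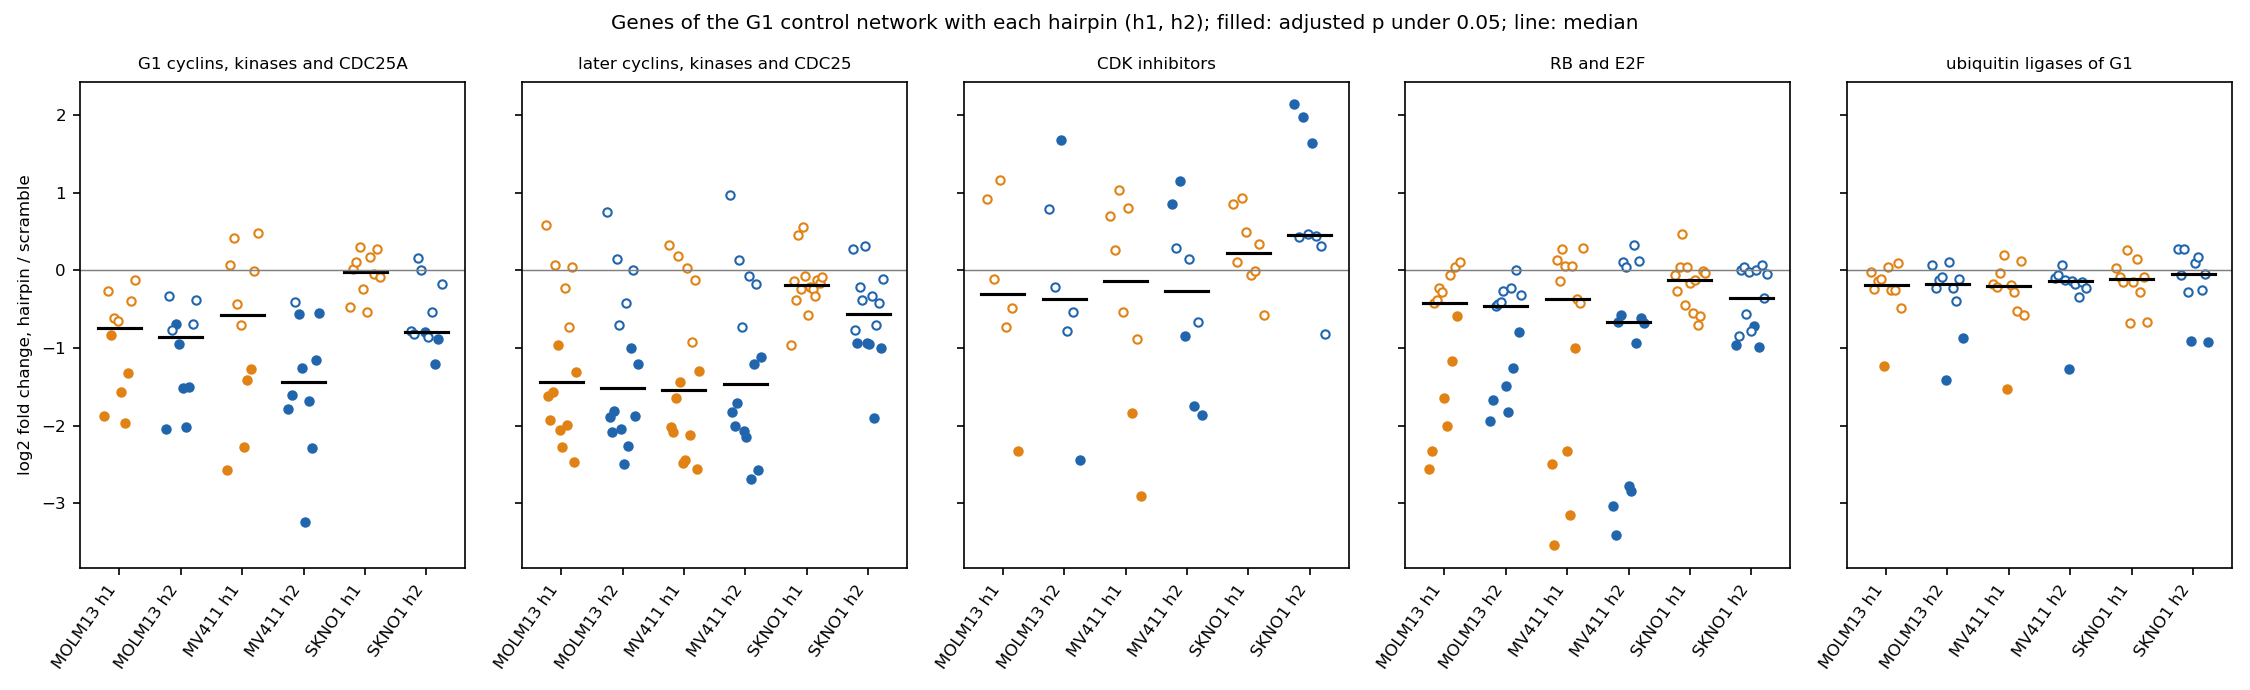
Log2 fold change, hairpin over scramble, of the 10 genes and of 4 lists of genes that act with them, with 1 point per gene tested, filled where the adjusted p was under 0.05, and a line at the median. In SKNO1, hairpin 1 (h1) has no filled point and hairpin 2 (h2) has 3 filled points above 0 among the CDK inhibitors.

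Across the 27 libraries, after each line's mean log2 CPM was subtracted, the 10 genes split by how closely they varied together. These correlations describe libraries that share groups and depth, and carry no p. CCNE1 and CDK2 were closest (Pearson r = 0.914), followed by CDK2 and CDC25A (0.905) and CCNA2 and CDC25A (0.894). CCNA2 and CDK6 were least alike (0.2). Over 10199 genes, those most like CCNA2 were DLGAP5 (0.986), TOP2A (0.983) and BUB1 (0.977), and those most like CDK2 were CKS1B (0.969), KIAA0101 (0.967) and DUT (0.963). TRIP13 (0.958), SKA3 (0.955) and CCNB2 (0.95) were most like CDC25A, and DTL (0.937), POLA1 (0.933) and BLM (0.931) most like CCNE2. CCNE1 was closest to EIF4A1 (0.935), ILF2 (0.933) and STARD7 (0.929), and CDK4 to POFUT1 (0.974), EMC4 (0.964) and CENPV (0.961). The likest genes of the D-type cyclins and CDK6 were less close. For CCND2 they were E2F3 (0.842), USP31 (0.818) and MED1 (0.806), for CCND3 VANGL1 (0.889), SAPCD2 (0.869) and ALYREF (0.868), for CDK6 EDEM3 (0.896), PTBP3 (0.89) and METTL15 (0.861), and for CCND1 CST7 (0.847), TMBIM1 (0.815) and CTSG (0.815).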

How the data were processed

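Total RNA of 27 libraries was prepared with a stranded kit after depletion of ribosomal RNA, per the labels' protocols. The submitters' processing notes name STAR 2.5.3, RSEM and the build GRCh38.p7. The authors deposited RSEM expected counts for 57992 genes, with no normalization. Of the non-zero values, 30.39% were not whole (tolerance 1e-09), and the strand setting was not given in the sources used here.

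Counts were rounded and tested in R 4.3.3 with edgeR 4.0.16: filterByExpr (minimum count 10, total 15), TMM scaling, and the two-sided quasi-likelihood F-test with Benjamini-Hochberg adjustment over all genes tested, called at 0.05. Each line's 9 libraries were fitted together, without a replicate block. Interactions used all 27 libraries, and baseline comparisons the 9 scramble libraries. Log2 fold changes carry an SE, taken as their size over the square root of the F statistic. Intervals are 1.96 SE, a normal rule. With 3 libraries per group they are narrower than 95% intervals of the F-test would be. CPM per kilobase used union exon lengths from GENCODE 29. Intervals cover the spread between libraries, and their number, 3 per group, limits precision. Alternatives were DESeq2 1.42.0, limma-voom 3.58.1, RLE and total count scaling, structured RNAs left out, no filter, all 27 libraries in 1 fit, the replicate block, and each library left out.

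The members and lists were chosen with earlier results of these data known. All members and CARM1 are named, with up to 2 genes per list, direction and comparison by smallest p, and the 3 genes most like each member among genes with mean log2 CPM of at least 2. TSPAN31 and INTS8 were named after their values were seen, for the exon bases they share. AC008012.1, EXOSC9 and YIPF2 are named for shared exon bases only. Replicate numbers paired samples (every correlation of deviations over 0.1) in MV411 (0.139 to 0.782) and between scramble and hairpin 1 of MOLM13 (0.221 to 0.45). The numbers come from the labels, which do not say what they share. SKNO1 scramble replicates 1 and 3 were the closest pair (chi-square per gene 7.75, next 23.2) and still differed by more than sampling noise. On simulated data, the test recovered 13%, 36% and 39% of 2-fold and 67%, 77% and 83% of 4-fold changes for hairpin 2 against scramble in MOLM13 (17732 genes), MV411 (17816) and SKNO1 (18430), and 13% and 46% for the hairpin 2 interaction of MV411 and SKNO1 (21262). Each simulated set had only 200 changed genes, whereas edgeR called 1671, 3313 and 2069 in the real comparisons with scramble. The adjustment is stricter with fewer changed genes, so these rates do not give the power of those tests.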

Additional observations from a re-analysis of the deposited data

Results flagged for a closer look

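The response to hairpin 1 differed between lines by an interaction test for 4 values of the genes described above. CDC25A fell more in MOLM13 than in SKNO1 (difference of log2 fold changes -2.14, adjusted p = 0.0035 in edgeR), from 16.6 to 4.26 CPM in MOLM13 beside 23.9 and 27.1 CPM in SKNO1. Its fall in MV411 also exceeded that in SKNO1 (-1.59, adjusted p = 0.034). CDK2 fell more in MOLM13 than in SKNO1 (-1.28, adjusted p = 0.029), from 25.6 to 10.3 CPM beside 22.9 and 22.3 CPM. CCND3 did too (-0.94, adjusted p = 0.038), from 110 to 71.7 CPM beside 4.2 and 5.22 CPM. The fall of CCND3 with hairpin 1 in MOLM13 was itself not called (adjusted p = 0.069 in edgeR). With single libraries left out, the CDK2 difference was lost without 6 of 12. Those of CCND3 and of CDC25A in MV411 were lost without 8. The MOLM13 difference of CDC25A held throughout.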

How the results depend on the processing

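Of 60 log2 fold changes against scramble (10 genes, 6 comparisons), 27 were called. No called value changed direction, 26 stayed called under every alternative tool, scaling, filter or fit run, and 14 stayed called with each library left out, where fewer samples were tested. The exception was CDK6 in MV411 with hairpin 2 in the fit of all 27 libraries. Counts of called genes moved as follows, and the cause was not tested. With DESeq2, 7 were called for MV411 hairpin 1 (main 4), 3 for the hairpin 1 interaction of MV411 with SKNO1 (main 1), and 1 for each hairpin 2 interaction with SKNO1 (main 0). With no filter on low counts, 5 were called for SKNO1 hairpin 2, 5 between the scramble libraries of MV411 and SKNO1, 1 for each interaction of MOLM13 with MV411, 5 and 4 for the hairpin 1 interactions of MOLM13 and MV411 with SKNO1, and 3 and 4 for those of hairpin 2. With total count scaling, 8 were called between the scramble libraries of MV411 and SKNO1, and 1 for the hairpin 2 interaction of MV411 with SKNO1. With that scaling the median of all genes was -0.39 for MV411 and -0.48 for MOLM13 against SKNO1, and it moved the share of called genes that were lower from 48.9% to 67.3% and from 48.5% to 71.0%. Between the hairpins of MV411 it moved that share from 49.0% to 32.2%, and in the hairpin 2 interaction of MOLM13 with SKNO1 from 60.6% to 47.9%. With the replicate block, 7 were called for MV411 hairpin 1, 2 for the hairpin 1 interaction of MV411 with SKNO1, and 1 for each hairpin 2 interaction with SKNO1. In SKNO1 and between MOLM13 hairpin 2 and the other groups, samples share only a number (lowest correlation -0.34), and the block changed no count within those lines by over 1.5 times. Beside the changes given with the genes, the block changed no other call where numbers paired samples.

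With 1 library left out, the number called ranged from 3 to 4 and 3 to 6 (MOLM13 hairpins 1 and 2), 1 to 5 and 5 to 10 (MV411), 0 to 0 and 2 to 3 (SKNO1), and between hairpins 0 to 0, 2 to 5 and 2 to 2. It ranged from 3 to 4 (MOLM13 and MV411), 2 to 3 (MOLM13 and SKNO1) and 3 to 4 (MV411 and SKNO1) between scramble libraries. For the interactions it ranged from 0 to 0 and 0 to 0 (MOLM13 and MV411), 1 to 4 and 0 to 1 (MOLM13 and SKNO1), and 0 to 4 and 0 to 3 (MV411 and SKNO1).

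Values that changed sign were uncalled. With total count scaling CCND1 was -0.18 in MV411 and -0.16 in SKNO1 with hairpin 1, CCND2 -0.059 in SKNO1 with hairpin 1, and CCND3 -0.14 in SKNO1 with hairpin 2. CCND3 there was -0.025 with no filter and -0.003 with structured RNAs left out. CDK4 in MV411 with hairpin 1 was 0.005 in the fit of all 27 libraries, 0.004 with limma-voom and 0.001 with the replicate block. With 1 library left out, CCND1 ranged from -0.54 to 0.005 (MOLM13 hairpin 1), -0.078 to 0.16 (MV411 hairpin 1) and -0.23 to 0.34 (SKNO1 hairpin 1). In SKNO1 with hairpin 1, CCND2 ranged from -0.16 to 0.29, CCNE2 from -0.97 to 0.013, CDC25A from -0.041 to 0.48, CDK2 from -0.23 to 0.029 and CDK6 from -0.37 to 0.027. In SKNO1 with hairpin 2, CCND3 ranged from -0.12 to 0.22 and CDK6 from -0.35 to 0.053, and CDK4 in MV411 with hairpin 1 from -0.16 to 0.08. Depth limits CCND1 most, with as few as 4 counts in a library.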
